A study of Mus musculus with 96 samples.

Results

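The enzymes that write and erase methyl groups on cytosine were described across single mouse hematopoietic stem cells. The set holds 9 genes, taken by name from the 38406 genes of the count table: the DNA methyltransferases Dnmt1, Dnmt3a and Dnmt3b, the methylcytosine dioxygenases Tet1, Tet2 and Tet3, the glycosylase Tdg, and the isocitrate dehydrogenases Idh1 and Idh2. All 9 were in the table, and each had counts in cells that passed quality control. The table holds 96 libraries, each of 1 bone marrow cell sorted as HSC1, a gate for cells with c-Kit, Sca-1 and CD150 on their surface and without CD48, CD34, Flt3 and the antigens of mature lineages. The mice were C57BL/6 and, per the labels, 9 to 12 weeks old, with no treatment or altered allele named. There is 1 population and no second group, and the animal behind a cell is not named, so values are compared between genes and between cells of this population and no p is given for a relation across cells.

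As background, Dnmt3a and Dnmt3b place new methyl groups on cytosine, mostly where a guanine follows it (CpG), and Dnmt1 copies the pattern onto the daughter strand after replication. The Tet enzymes oxidize 5-methylcytosine in steps, and Tdg cuts out the further oxidized bases, which base excision repair then replaces with unmodified cytosine. Idh1, in the cytosol, and Idh2, in mitochondria, make 2-oxoglutarate, the cosubstrate of the Tet enzymes, and mutant forms make 2-hydroxyglutarate, which inhibits them. Mutations of DNMT3A, TET2, IDH1 and IDH2 are frequent in human clonal hematopoiesis or myeloid leukemia, and mouse stem cells that lack Dnmt3a or Tet2 are known for increased self-renewal.

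After filters on counts, detected genes and spike-in share, 92 cells were kept, and cells 1, 2, 6 and 36 (numbered as in the labels) were left out. The kept cells had 739093 to 3473151 gene counts, with a median of 1599930, and 4945 to 8727 detected genes. Spike-in RNAs (ERCC, added in the same amount to each well) took 0.377% to 2.64% of counts. All 3 genes for which the gate was positive had counts, with Kit counted in 91 cells, Ly6a (Sca-1) in 85 and Slamf1 (CD150) in 58. Of 10 genes for antigens of the negative gate in the table, 4 were at 0 in every kept cell, among them Cd48. Cd34 was counted in 53 cells, Flt3 in 17 and Ptprc in 83, the last of which also encodes forms other than the B220 antigen. Of 20 markers of other blood cells, 6 were at 0, among them Cd3e, Elane and Mpo, whereas Lyz2 was counted in all 92 cells and Cd79b in 63. Cd4 among the former and S100a8 among the latter were called variable by the test given below, in 2 and 9 cells with counts.

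Idh2 was counted in nearly every cell, and each of the other 8 genes was counted in 46 to 66 of the 92 cells. A normalized count is the count divided by a size factor of the cell, and a gene is called counted in a cell with at least 1 count. Over the cells in which a gene was counted, the median normalized count ran from 30.9 (Tet2) to 322 (Idh2). Most cells had either no count of a gene or at least 10. Cells with 1 to 9 counts numbered from 1 (Idh2) to 13 (Tet2), the latter among 48 cells with a Tet2 count. Without molecular identifiers a count is not a molecule, and the intervals given cover counting error of cells only. A cell without a count cannot be told apart from a cell whose few transcripts were not captured.

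**Figure D1:**
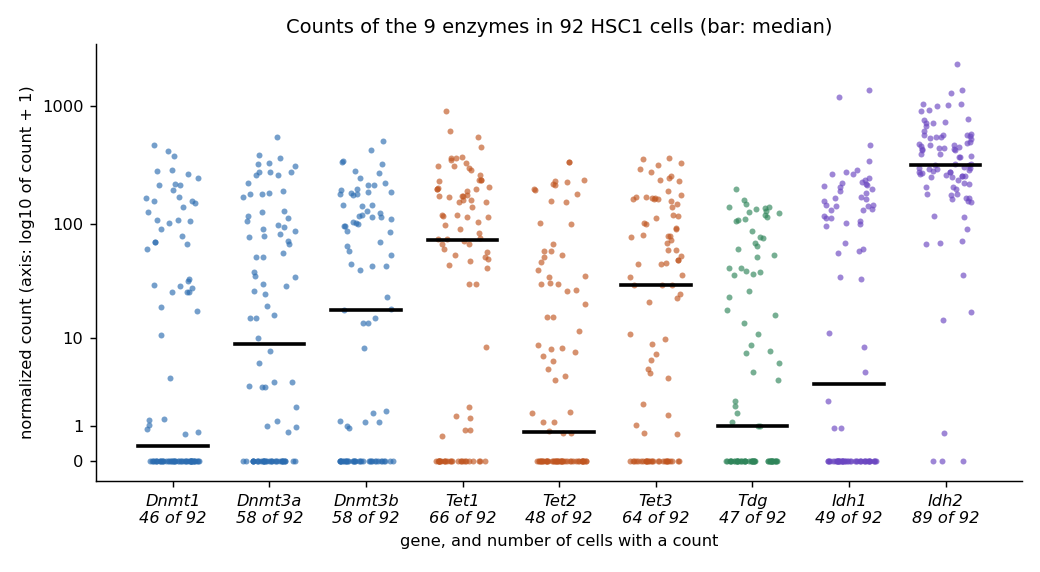
Normalized counts of the 9 genes (vertical axis, log10 of count + 1, ticks given as counts) in each of 92 HSC1 cells (points, spread sideways for view), with the median as a black bar and the number of cells with a count under each name. Idh2 lies mostly in a band around its median of 315, with 3 cells at 0, while the other genes have 26 to 46 cells at 0 beside a band of higher counts, and Idh1 has 2 cells, at 1194 and 1372, that stand apart from the rest.

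Dnmt1, the maintenance methyltransferase, lies on chromosome 9 from 20907209 to 20959888 on the minus strand (GRCm38, GENCODE M21 annotation, as for all genes below). It was counted in 46 of 92 cells, a share with an exact Clopper-Pearson 95% interval of 39.4 to 60.6%, and in 39 cells with at least 10 counts. Its normalized count ran from 0 over a median of 0.349 to 465 in cell 53, with a mean of 58.6 ± 101 (SD, n = 92). Of all cells, 10 held 55.3% of all Dnmt1 counts. Over the 9 genes this share ran from 30.5% (Idh2) to 65.7% (Tet2), so such a concentration was not particular to Dnmt1. The 3 highest cells for Dnmt1, cells 53, 21 and 34, had 465, 414 and 379.

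Dnmt3a, a de novo methyltransferase on chromosome 12 (3806007 to 3914443, plus strand), was counted in 58 cells (95% interval of the share 52.3 to 72.9%). Its normalized count had a median of 8.82, a mean of 71.3 ± 112 (SD, n = 92) and a highest value of 544 in cell 85. Dnmt3b, its paralog on chromosome 2 (153649450 to 153687730, plus strand), was counted in the same number of cells, 58, with a median of 18.1, a mean of 79.7 ± 108 and a highest value of 502 in cell 10. The pair was counted together in 36 cells, and 12 cells had a count of neither. Of the 3 methyltransferases, 7 cells had none counted, 29 had 1, 35 had 2 and 21 had all 3. Dnmt3l, the catalytically inactive partner of the de novo enzymes that acts in germ cells, was counted in 1 of 92 cells, with a normalized count of 2.97.

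Tet1, on chromosome 10 (62804570 to 62908996, minus strand), was counted in 66 cells (71.7%, 61.4 to 80.6%). Its normalized count had a median of 72.9, a mean of 124 ± 157 (SD, n = 92) and a highest value of 903 in cell 71, with 618 as the next. Tet2, on chromosome 3 (133463679 to 133545139, minus strand), was counted in 48 cells (52.2%, 41.5 to 62.7%), with a median of 0.770, a mean of 39.1 ± 77.2 and highest values of 335 in cell 57 and 333 in another. Tet2 lacks the CXXC DNA-binding domain that Tet1 carries, and 10 cells held 65.7% of its counts, more than for any other of the 9 genes. Tet3, on chromosome 6 (83362373 to 83459084, minus strand), was counted in 64 cells (69.6%, 59.1 to 78.7%), with a median of 29.8, a mean of 73.6 ± 95.8 and a highest value of 362 in cell 52. All 3 Tet genes were counted in 24 cells, 42 cells had 2 of them, 22 had 1 and 4 had none.

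Tdg, thymine DNA glycosylase, lies on chromosome 10 (82629828 to 82650799, plus strand) and was counted in 47 cells (51.1%, 40.4 to 61.7%). Its normalized count had a median of 0.974, a mean of 31.8 ± 50.2 (SD, n = 92) and a highest value of 200 in cell 21. Its counts are uncertain, because 3 copies elsewhere in the annotation match its longest transcript closely: Tdg-ps with 98.7% identity over 2968 bases, Gm9855 with 99.2% over 1194 and Gm5597 with 99.3% over 1193. Of these, Gm9855 is in the table and was counted in 21 of the 96 cells. Tdg also shares 367 exon bases with Glt8d2 on the other strand, which was counted in 3 of the 96 cells, and the strand setting of the counting is not given in the sources used here. Among the other genes, Dnmt3b matched Dnmt3c with 93.9% identity over 1434 of 4320 bases, and Dnmt3a and Tet2 shared 133 and 43 exon bases with antisense genes.

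Idh1, the cytosolic isocitrate dehydrogenase on chromosome 1 (65158616 to 65186500, minus strand), was counted in 49 cells (53.3%, 42.6 to 63.7%). Its normalized count had a median of 3.48, a mean of 104 ± 204 (SD, n = 92) and a highest value of 1372 in cell 56, followed by 1194 in cell 63 and 469 in cell 40. The 2 highest cells stood apart from all others. Idh2, the mitochondrial enzyme on chromosome 7 (80094846 to 80115392, minus strand), was counted in 89 cells (96.7%, 90.8 to 99.3%), and in 88 with at least 10 counts. Its normalized count had a lower quartile of 208, a median of 315, an upper quartile of 542 and a highest value of 2266 in cell 18, with a mean of 414 ± 345. Cell 18 was the cell with the most counts and fewest detected genes among those kept.

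Levels were set against each other per length, since full-length libraries give longer transcripts more counts. Per kilobase of all annotated exons the order was Idh2 with a mean of 160 ± 133 normalized counts per kilobase (SD, n = 92), Idh1 with 37.4 ± 73.8, Dnmt3b with 15.6 ± 21.2, Tet1 with 8.02 ± 10.1, Dnmt1 with 7.94 ± 13.7, Tdg with 5.92 ± 9.34, Tet3 with 4.41 ± 5.74, Dnmt3a with 4.28 ± 6.73 and Tet2 with 2.32 ± 4.58. Every step between neighbours in that order was smaller than the SD over cells of the difference between them, the step from Idh2 to Idh1 included (122 ± 158). This SD is the spread between cells and not the error of a mean step. Cell by cell, Idh2 was higher than Idh1 in 80 of 92 cells and lower in 10, with a ratio of mean levels of 4.27. Dnmt3b was higher than Dnmt3a per kilobase in 50 cells and lower in 30, and Tet1 was higher than Tet2 in 54 and lower in 22. Per kilobase of the longest transcript, Idh2, Idh1 and Dnmt3b kept the 3 highest places and Tet2 the lowest, and the 5 genes between them, at 6.75 to 9.98, changed order. Tet1 exceeded Tet3 in 49 cells against 36 by the first length and in 44 against 41 by the second, so no order is given for them.

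**Figure D2:**
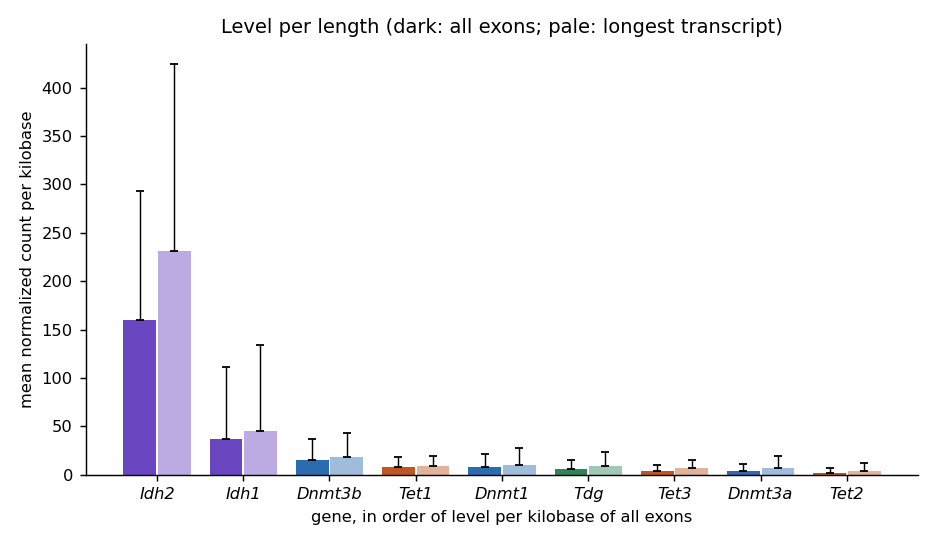
Mean normalized count per kilobase (vertical axis) of the 9 genes over 92 cells, divided by the length of all annotated exons (dark bars) or of the longest transcript (pale bars), with the SD over cells drawn upward. Idh2 stands at 160 by the first length and 231 by the second, and all genes except Idh1 and Idh2 are under 20 by either.

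Of the 9 genes, 1 varied between cells beyond the noise of the spike-ins. The squared coefficient of variation (CV2) of each gene was compared with the technical value fitted to spike-ins at its mean, in a chi-square test (Brennecke et al.) that allows each gene a biological CV of 0.5 and is adjusted by Benjamini-Hochberg over 21211 genes. Idh1 had 1.89 times the technical value, with an adjusted p of 0.00334 in that chi-square test. For the other 8 genes the adjusted p was 1, and equal levels between cells are not shown by it. Of all genes tested 2.64% were called, and of 6902 genes with means between those of Tdg and Idh2, the lowest and highest of the set, 4.80% were. The mean of Idh1, 104, is under 200, and on simulated data this test also called many unchanged genes with means under 200. Calls near a mean of 104 were not counted apart from those at lower means. The Idh1 call rested on single cells: without cell 56 the ratio was 1.30 and without cells 56 and 63 it was 0.664, each with an adjusted p of 1.

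Idh1 and Idh2 lay above the noise curve, Idh2 with 1.15 times the technical value, and the other 7 lay below it, from 0.388 for Tdg over 0.596 for Tet3, 0.697 for Dnmt3b, 0.743 for Tet2, 0.843 for Dnmt1 and Dnmt3a to 0.919 for Tet1. Over all genes tested 12.4% lay above the curve, and 23.8% of the genes with means in the range of the set did. The median ratio of the set was 0.843, beside 0.779 in the same range of means. The paper took genes as variable where CV2 exceeded technical noise by its own fit. Its text names Dnmt3a among the variable genes that it had also measured by qPCR. Whether the rest of the set stands on its full list is not reported here. Dnmt3a depended on the fit here too. With spike-ins above the 50th percentile of means its ratio was 1.08, still without a call in the chi-square test. Idh2 lay above the curve through its highest cell, since without cell 18 its ratio was 0.858. The choice of size factors bore on these calls: scaled by spike-ins, so that differences in RNA content between cells stay in the values, Dnmt1 had 2.21 times the technical value (adjusted p of 5.33e-06, chi-square test), Idh2 had 2.80 times (adjusted p of 0.00016) and Idh1 had 0.988 times (adjusted p of 1).

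**Figure D3:**
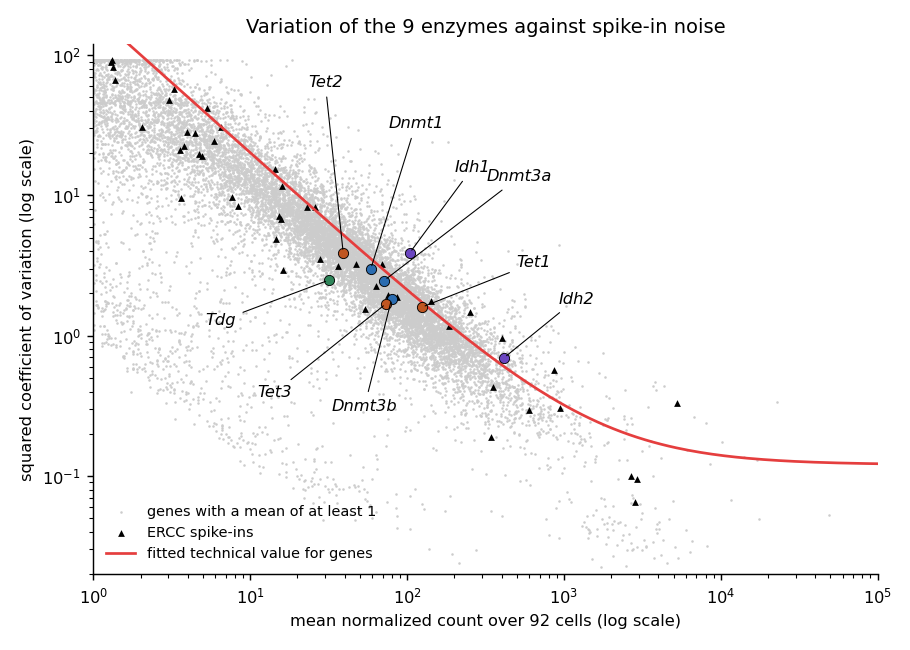
CV2 against the mean normalized count over 92 cells (both axes on a log scale) for all genes with a mean of at least 1 (grey), ERCC spike-ins (triangles), the fitted technical value (red line) and the 9 genes (named, colored by enzyme family). Idh1 and Idh2 lie above the line, with 1.89 and 1.15 times its value, and the other 7 genes lie below it within the grey cloud.

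Counts of the 9 genes were little related to each other from cell to cell. On log10(normalized count + 1), the 36 pairs had Pearson's r from -0.21 (Tet3 with Idh1) to 0.29 (Dnmt3a with Idh1), with a median of 0.017 and 22 pairs (61.1%) above 0. Over all pairs of 6179 genes counted in at least 46 cells the median was 0.012, and 54.2% were above 0. The cells share depth and capture, and in counts this sparse values of this size are a description. For 7 of the 9 genes the CV2 lay below the fitted technical value, so an r near 0 cannot show that their levels are unrelated. Dnmt1 and Dnmt3a had r = -0.019, Dnmt3a and Dnmt3b had r = -0.081, and Tet1 and Tet2 had r = 0.095. Idh1 and Idh2 had r = 0.015. The highest value, that of Dnmt3a with Idh1, was 0.26 without the 2 cells farthest from the Dnmt3a median and 0.25 without cells 56 and 63. Counted together, all 9 genes were found in 3 cells, no cell had fewer than 2 of them, and 5, 6 and 7 genes were the most frequent numbers, in 23, 24 and 21 cells.

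Of the 9 genes, Dnmt1 and Tdg had the highest Pearson's r over all 92 cells with genes of the G1/S transition and DNA replication, whereas Dnmt3b had the highest rank correlation. A cell's score for a list was computed as the average z score over the listed genes. With the score of 40 G1/S genes, which holds none of the 9, Dnmt1 had r = 0.40 and Spearman's rho = 0.27, Tdg had r = 0.33 and rho = 0.22, and Dnmt3b had r = 0.18 and rho = 0.32. The other 6 genes had r from -0.058 (Tet2) to 0.10 (Idh2). Among 6159 genes counted in at least 46 cells the median r with this score was 0.082, 73.1% were above 0 and 95% were below 0.28, and 7 of the 9 genes were above 0. Taken singly, 38 of the 40 G1/S genes had an r above 0 with Dnmt1, with a median of 0.18, as did 58.1% of all genes and 66.2% of those counted in at least 46 cells, with medians of 0.028 and 0.046. Of the cells, the 5 with the highest G1/S scores, from 1.26 to 2.32, all had Dnmt1 counted, with normalized counts of 465 in cell 53, 213 in cell 86, 414 in cell 21, 245 in cell 74 and 379 in cell 34. These cells ranked 1, 9, 2, 7 and 3 by Dnmt1 value, so they held the 3 highest of all, while cell 49, the next by score at 0.914, had no Dnmt1 count. In the other 87 cells Dnmt1 was counted in 41. Among these 87, cells 76, 22, 38 and 12 had Dnmt1 at 285, 283, 265 and 217, with G1/S scores of -0.18, -0.057, -0.29 and -0.14. A high Dnmt1 value was thus not confined to cells with a high score.

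The 5 cells with the highest G1/S scores were also rich in detected genes, with 7795 to 8727 each and ranks of 1, 3, 5, 6 and 8 among the 92. Dnmt1 itself had r = 0.43 with the log10 number of detected genes and r = -0.35 with the log10 spike-in percent, and the G1/S score had r = 0.69 with detected genes. All 9 genes had an r above 0 with detected genes, as did 79.5% of 6170 genes counted in at least 46 cells. Dnmt1 exceeded 99.6% of these 6170 genes. Given the number of detected genes, the partial r of Dnmt1 with the G1/S score was 0.16, and that of Tdg was 0.13. Without the 5 cells, left out after their values were seen, r was 0.14 for Dnmt1 and a higher 0.25 for Tdg. The r of Dnmt1 was thus lower without these cells. Leaving out the highest scores narrows the range of the score, so this drop cannot show that the relation rested on them. The part of RNA content in the relation was not tested beyond the partial r.

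**Figure D4:**
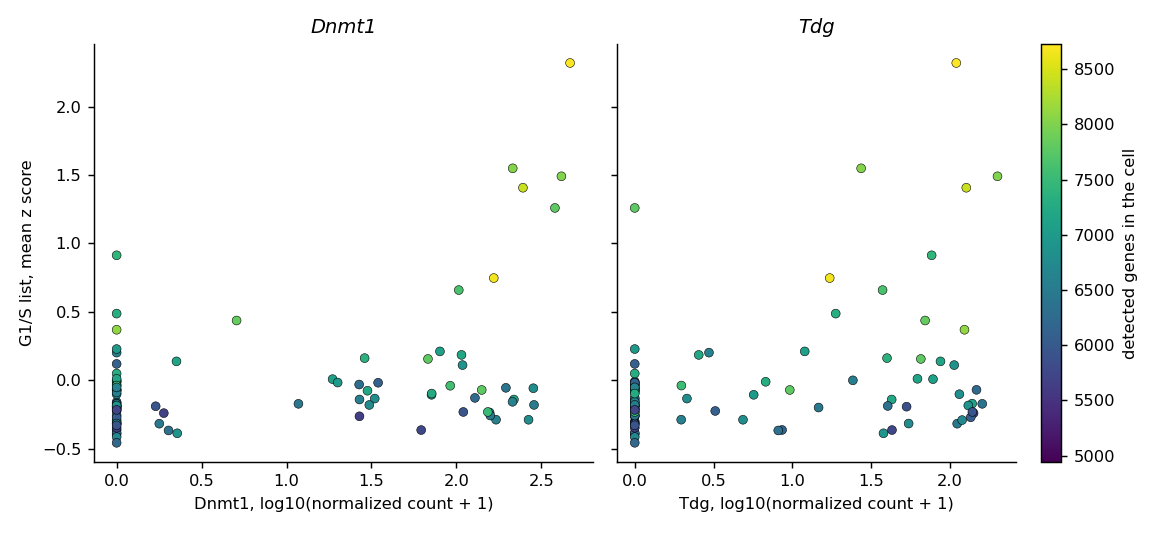
Mean z score of 40 G1/S genes (vertical axis) against log10(normalized count + 1) of Dnmt1 (left) and Tdg (right), a point per cell (n = 92), colored by the number of detected genes. The 5 cells with scores of 1.26 and above lie toward the right edge for Dnmt1, with normalized counts of 213 to 465, and 4 of them have Tdg counted. Cells with scores below 0 lie in the same range of Dnmt1 counts.

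Uhrf1, which recruits Dnmt1 to hemimethylated DNA, was counted in 16 of 92 cells, with a highest normalized count of 1143 in cell 53, the highest cell for Dnmt1 as well. Of 8 genes listed as maintenance partners, Uhrf1 (2.50 times the technical value) and Hells, a chromatin remodeler (2.32 times), were called variable, and 6 lay above the curve. All 8 had an r above 0 with Dnmt1, with a median of 0.19, beside 58.1% of all genes and a median of 0.028. Their score had r = 0.34 with Dnmt1, or 0.082 given detected genes, and a higher r of 0.37 with Tdg, or 0.21 given detected genes. It had r above 0 with 72.2% of all genes counted in at least 46 cells. Pcna, the sliding clamp that Dnmt1 binds, was counted in 89 cells, with a mean of 470 ± 453 normalized counts (SD, n = 92). Uhrf1, Hells and Cdca7 stand on the G1/S list too.

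Promoter windows were searched because Dnmt1 was related to the G1/S genes, many of which are known targets of E2F factors. Windows of 250 bases before to 50 after RefSeq starts (GRCm38.p6) were found for all 9 genes. A window was searched on both strands for TTTCGCGC and TTTGGCGC, forms of the E2F site that can overlap each other when read on opposite strands. Of the 9 genes only Dnmt1 had a match, in 1 of its 3 windows. In all, 251 of 27025 genes (0.929%) had one, and 10 of the 30 G1/S genes that had windows (33.3%). Both searched strings hold a CpG, and windows of the G1/S list had a median of 21.5 CpG beside 7 over all windows. The 2 shares thus come from unlike windows. The matches of Dnmt1 are shown with those of Uhrf1 and of 2 replication genes with which they can be compared, each in 30 bases on the strand read, with the searched letters in capitals. Both Dnmt1 sites lie in exons of Dnmt1, in stretches annotated as UTR, at chr9:20952824-20952853 (plus strand, upstream of the RefSeq start) and chr9:20952574-20952603 (minus strand, downstream of it). The Uhrf1 site, at chr17:56304117-56304146 (plus strand), lies within a longer annotated Uhrf1 transcript but outside its exons. The Mcm6 site shown, 1 of its 3 matches, at chr1:128359734-128359763 (minus strand), lies outside annotated transcripts, and the Dtl site, at chr1:191575534-191575563 (minus strand), in a UTR exon of Dtl.
Dnmt1 upstream: gaccccggcttTTTCGCGCgcgcggaaacc
Dnmt1 downstream: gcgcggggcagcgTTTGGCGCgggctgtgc
Uhrf1: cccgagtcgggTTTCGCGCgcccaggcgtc
Mcm6: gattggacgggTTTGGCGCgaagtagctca
Dtl: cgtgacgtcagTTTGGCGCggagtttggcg
A match of letters is no evidence of binding, and the absence of these letters from the other windows says nothing of a factor. The windows of the 9 genes held 2 to 57 CpG: Tet2 had 57 in its 300 bases, a number that 0.152% of all windows reached, Dnmt3a had 46, 47 and 18 in its windows, and the Dnmt1 window with the sites had 33, beside a median of 7 over 32851 windows.

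With 50 mitotic genes (G2/M), Dnmt1 had r = 0.24 and rho = 0.43, and the partial r given detected genes was 0.057. With the same list, 6 of the 9 genes were above 0, beside 68.3% of 6161 genes counted in at least 46 cells. With 22 stem cell genes, 2 of the 9 were above 0, beside 41% of 6150 genes counted in at least 46 cells. The lowest value was that of Tdg at -0.31, which was -0.24 given detected genes and -0.048 with spike-in size factors. With 18 megakaryocyte genes, 5 of 9 were above 0, from -0.12 for Tet2 to 0.19 for Dnmt1, beside 66.2% of 6165 genes counted in at least 46 cells. Of the G1/S list 9 genes were called variable (among them Mcm7, Mcm5, Rrm1, Casp8ap2, Prim1, Uhrf1, Hells and Rrm2) and of the G2/M list 23 (Smc4, Hmgb2, Cks2, Cenpa, Ccnb2, Cdc20, Cdk1, Ccnb1, Kif20b, Ckap2l, Ccna2, Tpx2, Cenpe, Cenpf, Cdca3, Birc5, Ube2c, Ckap2, Nuf2, Mki67, Plk1, Hmmr and Aurkb), whereas Dnmt1 and Tdg were not. Of the stem cell list 3 were called (Mllt3, Ly6a and Sult1a1) and of the megakaryocyte list 6 (Rap1b, Vwf, Pf4, Plek, Itga2b and Gp1bb). These counts stand beside the 2.64% of all genes called. A call at a low mean is weak, and Rrm2 had a mean of 9.24 and Aurkb of 5.20. The Tet genes, Dnmt3a and Idh1 had r from -0.12 to 0.15 with the G1/S, G2/M, stem cell and megakaryocyte lists.

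**Figure D5:**
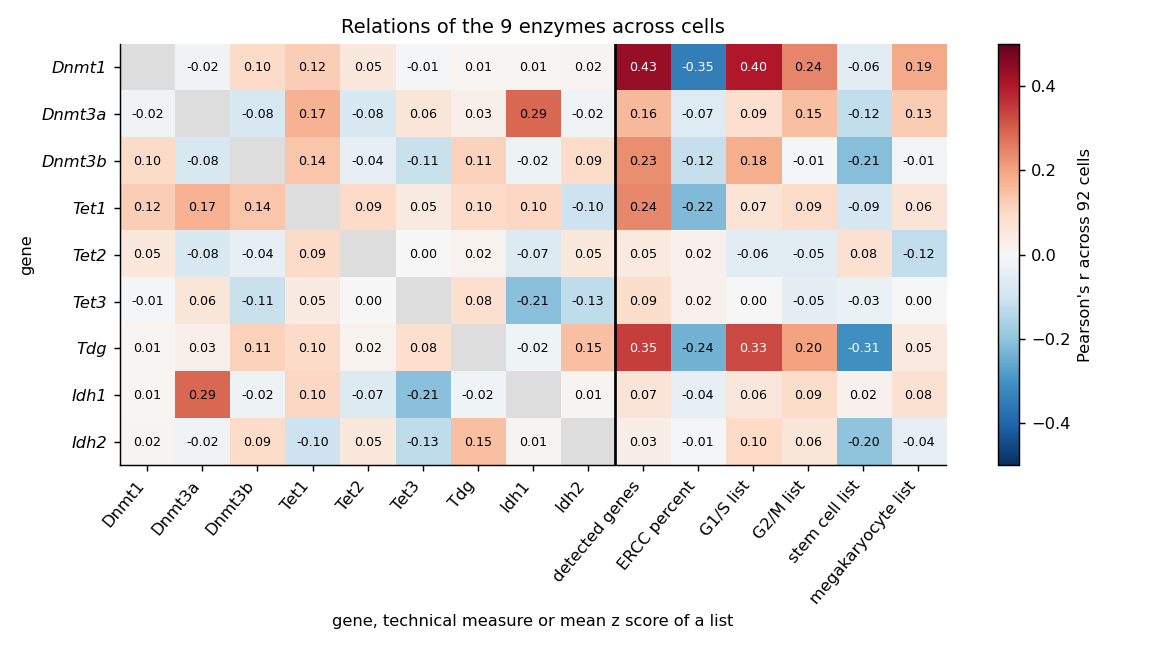
Pearson's r across 92 cells (color and printed value) of each of the 9 genes (rows) with the other 8 (left of the black line) and with technical measures and list scores (right of it). Values among the 9 genes run from -0.21 to 0.29, and the highest values of the map are those of Dnmt1 and Tdg with detected genes (0.43 and 0.35) and the G1/S list (0.40 and 0.33).

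The other lists of genes that work with these enzymes are given by their counts, to be read beside the 2.64% of all genes called. Of 9 genes around de novo methylation, 1 was called, Trdmt1, a methyltransferase of tRNA in spite of its likeness to the Dnmt enzymes, with 24 cells counted and a highest value of 882. Of 8 methyl-CpG readers none was called by the chi-square test, 0 at an unadjusted p under 0.05, and all lay below the curve, Mbd3 with a mean of 84.3 ± 115 (SD, n = 92) among them. Of 8 genes that modify or recruit Tet proteins, 6 had counts and none was called, 0 at an unadjusted p under 0.05. Ogt, the glycosyltransferase that binds Tet proteins, was counted in 91 cells with a mean of 807 ± 420, and Cxxc4 and Sall4 were at 0. Of 17 genes of base excision repair and cytosine deamination, 16 had counts and 1 was called, Gadd45g, a stress-response gene, with a highest value of 1036.

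Of 13 genes that make or recycle the methyl donor S-adenosylmethionine, 12 had counts and 1 was called. Mat2a and Mat2b, subunits of the synthetase used outside liver, were counted in 90 cells each, with means of 633 ± 444 and 407 ± 370, and Mat1a, the liver form, was at 0. Of 14 other enzymes that make, use or compete with 2-oxoglutarate, all had counts and none was called, 0 at an unadjusted p under 0.05. Among these, Sdha had a mean of 552 ± 352, Idh3g 543 ± 358 and Idh3b 519 ± 311, the last counted in all 92 cells. Among male germline genes, many of which are known to be silenced by promoter methylation in somatic cells, 9 of 18 were at 0 in the 92 cells, which allows a share of up to 3.26% of cells with a count for each and sets no limit on cells that express the gene. The other 9 were counted in 1 to 12 cells, Brdt in 12 and Ddx4 in 6, and 1 of them, Dazl, counted in 3 cells with a highest value of 481, was called variable.

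For each of the 9 genes, the genes most like it were sought by Spearman's rho of normalized counts over 92 cells, among 5095 genes with a mean of at least 50 that were counted in at least 46 cells. The highest rho was 0.45, of Tdg with Mrpl20, a mitochondrial ribosomal protein gene. Dnmt3a was most like Amd1 (0.43), which encodes S-adenosylmethionine decarboxylase of polyamine synthesis, and Snapc2 (0.43), a subunit of the complex that transcribes small nuclear RNA genes, followed by Acp1 (0.35). Dnmt1 was most like Elavl1 (0.41), an RNA-binding protein gene, Coro1c (0.38) and Tcea1 (0.35), a transcription elongation factor gene. Tet3 was most like Med15 (0.41), a Mediator subunit gene, Nisch (0.36) and Frmd8 (0.36), and Tet2 had Gstm5 (0.36) and Slc2a3 (0.35), a glucose transporter gene, among the 3 most like it. Idh2 was most like Erdr1 (0.40), Ints7 (0.35) and Padi4 (0.35), and Dnmt3b was most like Hsd3b7 (0.37), Prdx1 (0.36), a peroxiredoxin gene, and Pglyrp2 (0.34). The values were lower for Tet1, with Shprh (0.35), Arrb1 (0.34) and Lsg1 (0.33), and for Idh1, with Commd1 (0.35), Dhx35 (0.34) and Sesn1 (0.34). Tdg was next most like Ywhag (0.36) and Polr2l (0.36). Each is the top of 5095 ranked values, so the size of these rho values is no evidence by itself.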

How the data were processed

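The authors isolated single cells by FACS into lysis buffer, made full-length cDNA libraries after Picelli et al. with the Nextera XT kit and sequenced them on an Illumina HiSeq. The deposited table gives raw, not normalized counts for genes and for the ERCC spike-ins. The submitters' processing notes name mm10 as the build, STAR (2.3.0), HTSeq (0.6.1) and SAMtools (0.1.18). The strand setting and annotation release are not given in the sources used here. Total counts per kept cell were 739093 to 3473151.

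Cells beyond 3 scaled median absolute deviations (factor 1.4826) were left out, on the log10 scale for low gene counts and low detected genes and on the linear scale for a high spike-in share. Size factors were medians of ratios over 602 genes and, apart, 8 spike-ins. Technical noise was a gamma model with identity link of CV2 on the inverse mean, fitted to 16 spike-ins whose mean reached 67.0, with a fitted constant of 0.120 and slope of 189.8, and genes were tested with the chi-square method of Brennecke et al. at an adjusted p under 0.1. On simulated data, this test called many unchanged genes with means under 200 and few above, so a call at a low mean is weak. List scores are mean z scores of log10(normalized count + 1). Gene lengths, overlaps and copies (at least 500 aligned bases with 90% identity, BLAST 2.17.0) came from GENCODE M21 and promoter sequences from RefSeq (GRCm38.p6, 9 of 9 genes matched).

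The 9 genes are all named. Of each list, the genes called variable and up to 5 with the highest mean could be named, and for each of the 9 genes the 3 with the highest rho. Some genes that this rule takes are not reported here. Members and lists were chosen with earlier results of these data known. The p-values measure whether the spread between these cells exceeds the fitted spike-in noise with the allowed biological CV. Because no animal is named, they do not cover variation between animals, and a spread beyond the fit may still be technical. Alternatives were other cell filters, total-count and spike-in size factors, other noise fits, thresholds, thinning, ranks, a pseudocount of 10, and relations given detected genes. Sets of cells (56, 56 and 63, and the 5 with the highest G1/S scores) were left out as alternatives chosen after seeing the data. Software was statsmodels 0.14.6, scipy 1.17.1, pandas 2.3.3, numpy 2.4.6 and matplotlib 3.10.9 in Python 3.11.15.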

Additional observations from a re-analysis of the deposited data

Results flagged for a closer look

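Of the 4 cells left out by the filters, 3 had counts of the enzymes above the limit of 3 that a count of 0 allows, in data that no comparison above uses. Cell 1, with 633845 gene counts, had 4 of the 9 genes above that limit, with raw counts of 154 for Dnmt3a, 7 for Tet2, 103 for Tet3 and 203 for Idh2. Cell 6, with 794679 gene counts, had 2, with 14 for Dnmt3a and 12 for Tdg, and it had no count of Idh2, which was counted in 89 of the 92 kept cells. Cell 36, with 4948251 gene counts, had 2, with 673 for Dnmt1 and 2357 for Idh2, and 1 count of Idh1. Cell 2 had 1035 gene counts in all and none of the 9 genes. With all 96 cells in place of 92, each of the 9 genes was counted in 0 to 2 more cells.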

How the results depend on the processing

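The number of the 9 genes called variable was 1 and stayed so under 9 of the 13 alternatives. It was 0 with total-count size factors (Idh1 at 1.61 times the technical value, adjusted p of 0.188 in the chi-square test), 0 without cell 56, 0 without cells 56 and 63, and 2 with spike-in size factors (Dnmt1 and Idh2). The number above the noise curve was 2. It was 1 without cell 18, 1 without cells 56 and 63, 5 with spike-in size factors and 5 with spike-ins above the 50th percentile of means in the fit. Over all genes 560 were called and 2627 lay above the curve, beside 1047 and 5285 with spike-in size factors, 1330 and 5320 with the other spike-ins, and 297 and 1462 among genes with a mean of at least 50. The causes were not tested. With a count of at least 10 in place of 1, Dnmt3a was counted in 46 cells, Tet2 in 35, Tet3 in 53 and Tdg in 36, and thinning every cell to 739093 counts left each count of cells within 4 of its value. The r of Dnmt1 with the G1/S score was 0.40, 0.27 by Spearman's rho, 0.16 given detected genes and 0.14 without the 5 cells of the highest score. It was 0.48 with spike-in size factors, 0.45 with a pseudocount of 10 and 0.41 with total-count size factors. The other alternatives gave 0.33 to 0.40. The median r between the 9 genes stayed near 0 under all 11 alternatives, from -0.0019 to 0.081, and of the values of single pairs 390 moved by less than 0.1 and 6 by more. The mean normalized count of Dnmt1 was 91.1 with spike-in size factors, beside 58.6, a ratio of 1.55, and the next largest ratio of a mean under an alternative was 1.40. For the alternative with all 96 cells, 1 was added to counts before the ratios. No paired analysis was possible because the cells form 1 group without numbers shared between groups. Depth limits every statement on cells without a count.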
